A study of Mus musculus with 7 samples.

Results

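The genes described here are 10 whose proteins make up, fill or arm the lytic granule of cytotoxic lymphocytes: the granzymes Gzma, Gzmb, Gzmc, Gzmk and Gzmm, the pore former Prf1, the granule membrane protein Nkg7, the cathepsin Ctsw, the granule proteoglycan Srgn and the death ligand Fasl. They were chosen by name among 20719 genes measured on Affymetrix mouse gene arrays, and each of the 10 was represented by a single transcript cluster (the set of probes that reports a gene). The arrays held RNA of GFP-positive adrenal cells sorted from 6-week-old male C57BL/6J mice. In the Wnt+ group (3 arrays), the mice carried TCF/Lef:H2B-GFP, a histone-GFP fusion driven by multimerised TCF/LEF binding sites on a minimal Hspa1b promoter, which reads canonical Wnt signalling. In the SF1+ group (4 arrays), the mice carried Sf1:eGFP, driven by a BAC fragment of Nr5a1, the gene of the steroidogenic factor SF1. Each array came from its own sort of 10 pooled adrenals, and the sort gates named by the labels are viability and GFP alone. Each group is a transgenic line of its own, so line, reporter and sorted population cannot be told apart.

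Cytotoxic lymphocytes, chiefly natural killer (NK) cells and CD8 T cells, kill by secreting granules at the contact with a target cell. Perforin opens the target membrane, granzymes enter and cleave proteins that start cell death, and serglycin holds these cargoes in the granule. A second route uses Fas ligand on the killer cell and Fas on the target. The steroid-making cells of the adrenal cortex are not known for this machinery. Serglycin is less restricted, since endothelial and myeloid cells make it too.

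The values are log2 expression after the robust multi-array average (RMA), and every difference is Wnt+ minus SF1+ on that scale. Array medians over these genes were 3.13 to 3.23. Around and below that level RMA compresses differences, and no detection calls were used here, so dim values have no certain order. Precision is limited by the number of arrays. The array-to-array Pearson correlation over the 20719 genes, which are not independent replicates, was 0.962 to 0.968 within Wnt+, 0.972 to 0.983 within SF1+ and 0.926 to 0.969 across the groups. The labelled cell type was present by its markers: Star and Cyp11a1, which start steroid synthesis, averaged 10.12 and 9.72 in Wnt+ cells and 9.09 and 8.73 in SF1+ cells. Nr5a1 ran against its label, with 7.30 ± 0.38 (SD, n = 3) in the libraries labelled Wnt+ and 5.75 ± 0.47 (SD, n = 4) in those labelled SF1+.

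All 10 granule genes had lower mean values in Wnt+ cells. A negative difference was seen for 45.2% of all genes. Nkg7 alone fell after adjustment over all 20719 genes (limma adjusted p = 0.0396), so 1 of the 10 was called lower, against 0.203% of all genes, and 0 were called higher, against 0.0531%. In either direction 0.256% of all genes were called. For 8 of the 10 every Wnt+ array lay below every SF1+ array, as it did for 7.07% of all genes. The same 8 had an unadjusted limma p under 0.05 in that direction, against 7.89% of all genes. The median difference of the 10 was -1.09, and the median of all genes was 0.02. At least 2-fold lower values were found for Nkg7, Gzma, Gzmb, Ctsw and Fasl, against 2.95% of all genes. In bulk RNA, fewer cells of a type and less RNA per cell cannot be told apart. The call depended on single arrays. It stood without Wnt+ replicate 1 (adjusted p = 0.042) and without SF1+ replicate 1 (0.00342). It was lost without Wnt+ replicate 2 (0.0878) or replicate 3 (0.0889) and without SF1+ replicate 2 (0.139), replicate 3 (0.114) or replicate 4 (0.09), while the difference of Nkg7 stayed between -4.22 and -3.59.

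**Figure D1:**
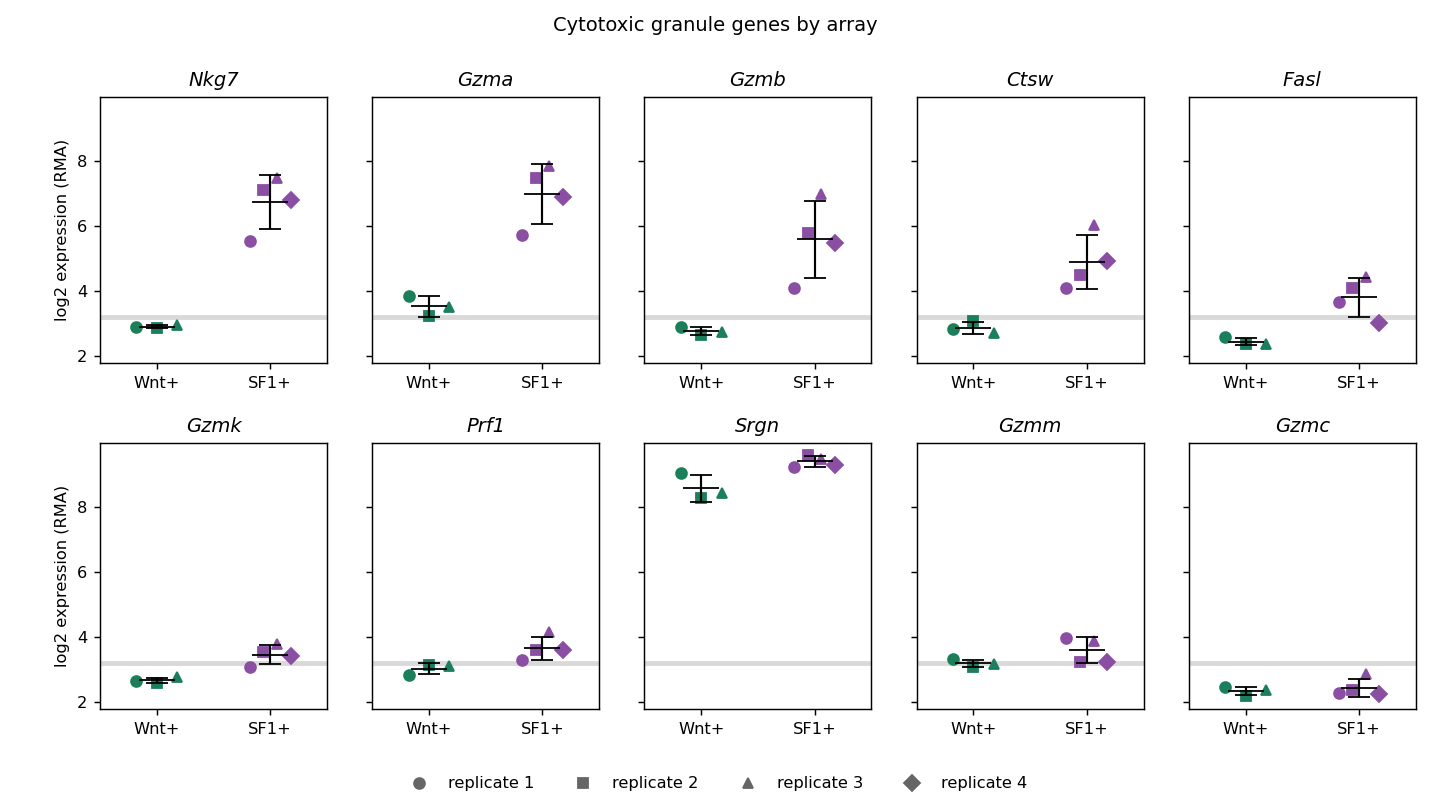
Log2 expression of the 10 genes in each array, Wnt+ left and SF1+ right, with black bars for the mean and SD and a grey band for the range of the array medians. Nkg7, Gzma, Gzmb, Ctsw, Fasl, Gzmk, Prf1 and Srgn have no overlap between the groups, whereas Gzmm and Gzmc overlap.

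Nkg7, a membrane protein of the lytic granule that mouse lymphocytes need for granule release, had the largest negative difference of the 20719 genes. It measured 2.88, 2.86 and 2.96 in Wnt+ replicates 1, 2 and 3, against 5.54, 7.10, 7.46 and 6.80 in SF1+ replicates 1 to 4. The Wnt+ arrays were nearly alike, below the array median, and the SF1+ arrays spread over 1.92. The difference was -3.83 (SE 0.42, 95% interval -4.83 to -2.83), a value 14.2-fold lower in Wnt+ on this scale.

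Gzma, a tryptase-like granzyme, measured 3.85, 3.22 and 3.50 in Wnt+ replicates 1 to 3 and 5.72, 7.45, 7.83 and 6.87 in SF1+ replicates 1 to 4. The groups did not overlap, and the lowest SF1+ array was again replicate 1. Its difference of -3.44 (SE 0.48, 95% interval -4.58 to -2.30) was the 4th most negative of all genes and missed the threshold (limma adjusted p = 0.0561). It passed without Wnt+ replicate 1 (adjusted p = 0.0495, difference -3.60) and without SF1+ replicate 1 (0.0182, difference -3.86). Gzmk, a related tryptase and the next gene along chromosome 13, measured 2.64, 2.60 and 2.76 in Wnt+ and 3.09, 3.55, 3.79 and 3.41 in SF1+. Its arrays did not overlap either, and its difference was -0.79 (SE 0.16, limma adjusted p = 0.111).

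Gzmb, the granzyme that cleaves after aspartate and activates caspases, measured 2.89, 2.65 and 2.72 in Wnt+ and 4.09, 5.77, 6.97 and 5.47 in SF1+. Among the 10 it had the widest spread over the SF1+ arrays, 2.89 on the log2 scale, with replicate 1 lowest and replicate 3 highest. Its difference was -2.82 (SE 0.60, limma adjusted p = 0.115), and it passed without SF1+ replicate 1 (adjusted p = 0.0436, difference -3.32). Gzmc, its neighbour on chromosome 14, measured 2.46, 2.20 and 2.36 in Wnt+ and 2.27, 2.36, 2.85 and 2.25 in SF1+. These overlapping values lay below the array medians, and the difference of -0.09 had a 95% interval of -0.48 to 0.29. Gzmc is close in sequence to the other granzymes of its cluster, so its probes may not report it alone. Gzmm, a granzyme known from NK cells, measured 3.31, 3.09 and 3.16 in Wnt+ and 3.97, 3.24, 3.89 and 3.24 in SF1+. Wnt+ replicate 1 lay above 2 SF1+ arrays, and the difference was -0.39 (95% interval -0.90 to 0.12, limma adjusted p = 0.452).

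Prf1, which encodes perforin, was near the array medians in both groups, at 2.83, 3.14 and 3.11 in Wnt+ and 3.29, 3.59, 4.14 and 3.61 in SF1+. The groups did not overlap, and the difference was -0.63 (SE 0.20, limma adjusted p = 0.208). Ctsw, a cysteine cathepsin of cytotoxic lymphocytes, measured 2.82, 3.06 and 2.69 in Wnt+ and 4.09, 4.48, 6.02 and 4.92 in SF1+. All Wnt+ arrays were low and SF1+ replicate 3 stood highest, with a difference of -2.02 (SE 0.43, limma adjusted p = 0.115). Fasl, the ligand that engages the death receptor Fas, measured 2.57, 2.37 and 2.37 in Wnt+ and 3.66, 4.08, 4.43 and 3.02 in SF1+. Here the lowest SF1+ array was replicate 4, and the difference was -1.36 (SE 0.31, limma adjusted p = 0.126).

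Srgn, the core protein of the proteoglycan that packs granule proteases, measured 9.04, 8.26 and 8.42 in Wnt+ and 9.23, 9.59, 9.48 and 9.28 in SF1+. The groups did not overlap, and the range was wider in Wnt+ (0.77) than in SF1+ (0.36), unlike the other 9 genes. The difference was -0.82 (SE 0.20, limma adjusted p = 0.132), and it passed only without Wnt+ replicate 1 (adjusted p = 0.038, difference -1.06). The mean of the 10 endothelial markers was 7.70, 5.47 and 6.93 in Wnt+ replicates 1 to 3 and 7.97, 8.18, 8.39 and 8.48 in SF1+ replicates 1 to 4. It had the array order of Srgn within Wnt+ but not within SF1+. The mean of the 6 pan-leukocyte markers was 6.34, 5.85 and 6.67 in Wnt+ and 6.91, 8.25, 8.05 and 8.00 in SF1+, with the order of Srgn within SF1+ but not within Wnt+. Endothelial and myeloid cells make serglycin, and their part in the Srgn difference was not tested.

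**Figure D2:**
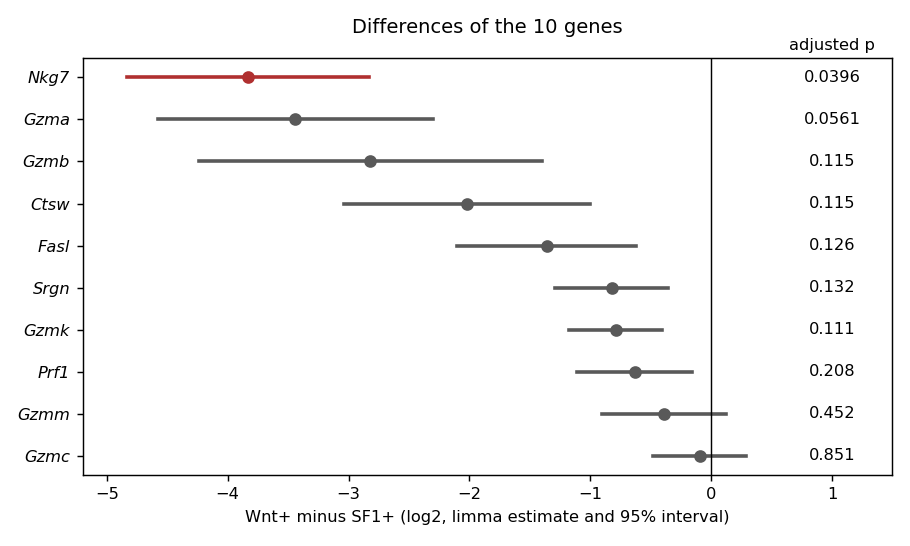
Fitted Wnt+ minus SF1+ difference of each gene (points) with its 95% interval (lines) on the log2 scale, and the limma p adjusted over 20719 genes at the right; red marks the gene past 0.05. Differences run from -3.83 for Nkg7 to -0.09 for Gzmc, and the intervals of Gzmm and Gzmc include 0.

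The genes on either side of each granule gene, in RefSeq order, were not called in either direction. Beside Nkg7 on chromosome 7, Lim2 differed by 0.03 (SE 0.09) and Cldnd2 by 0.13 (SE 0.13). Gzmb lies between Gzmc and Atp12a (-0.33, SE 0.22), and Gzmf, on the other side of Gzmc, differed by -0.04 (SE 0.10). Beside Prf1, Adamts14 differed by -0.06 (SE 0.09) and Pald1 by -0.11 (SE 0.28), and beside Ctsw, Fibp differed by -0.20 (SE 0.23) and Efemp2 by 0.75 (SE 0.30). Beside Gzmm, Cdc34 differed by -0.48 (SE 0.21) and Bsg by 0.40 (SE 0.19), so both were as far from 0 as Gzmm itself (-0.39). Beside Fasl, Tnfsf18 differed by 0.04 (SE 0.13) and Suco by -0.31 (SE 0.15), and beside Srgn, Vps26a differed by -0.13 (SE 0.18) and Kifbp by 0.21 (SE 0.24). Esm1, an endothelial proteoglycan gene that follows Gzma and Gzmk, differed by -1.19 (SE 0.33, limma adjusted p = 0.166), which is further from 0 than the difference of Gzmk. The gene on the other side of Gzma, Gpx8, differed by 0.53 (SE 0.15, limma adjusted p = 0.171).

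Promoters are shown for Nkg7, Gzma and Gzmb, which had the largest differences, and for Gzmc, the neighbour of Gzmb whose groups overlapped. The windows hold 250 bases before and 50 after the RefSeq start of the gene (GRCm38.p6) and are written 5′ to 3′ on the gene's strand: chr7:43436888-43437187 on the plus strand and chr13:113100932-113101231, chr14:56262285-56262584 and chr14:56234608-56234907 on the minus strand. Capitals mark matches, on either strand, to core motifs of factor families known in cytotoxic lymphocytes: GTGTGA (T-box), TGTGGT (RUNX), AGGAAG (ETS) and TTCNNNGAA (STAT).
Nkg7: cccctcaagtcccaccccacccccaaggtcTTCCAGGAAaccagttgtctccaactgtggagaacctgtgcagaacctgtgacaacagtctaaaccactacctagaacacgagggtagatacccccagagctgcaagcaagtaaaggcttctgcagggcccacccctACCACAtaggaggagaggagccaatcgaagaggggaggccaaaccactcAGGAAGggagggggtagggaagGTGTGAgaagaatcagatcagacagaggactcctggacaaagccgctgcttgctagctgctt
Gzma: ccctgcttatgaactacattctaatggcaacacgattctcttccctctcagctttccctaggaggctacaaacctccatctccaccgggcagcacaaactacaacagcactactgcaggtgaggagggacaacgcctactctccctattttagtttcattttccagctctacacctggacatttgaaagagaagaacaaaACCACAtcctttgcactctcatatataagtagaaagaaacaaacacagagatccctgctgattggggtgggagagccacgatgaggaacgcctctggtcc
Gzmb: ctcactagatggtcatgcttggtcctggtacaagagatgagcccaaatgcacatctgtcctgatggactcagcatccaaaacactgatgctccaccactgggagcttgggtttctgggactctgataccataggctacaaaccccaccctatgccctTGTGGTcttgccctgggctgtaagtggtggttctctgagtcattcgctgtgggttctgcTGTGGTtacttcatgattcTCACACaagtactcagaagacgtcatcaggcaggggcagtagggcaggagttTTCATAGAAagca
Gzmc: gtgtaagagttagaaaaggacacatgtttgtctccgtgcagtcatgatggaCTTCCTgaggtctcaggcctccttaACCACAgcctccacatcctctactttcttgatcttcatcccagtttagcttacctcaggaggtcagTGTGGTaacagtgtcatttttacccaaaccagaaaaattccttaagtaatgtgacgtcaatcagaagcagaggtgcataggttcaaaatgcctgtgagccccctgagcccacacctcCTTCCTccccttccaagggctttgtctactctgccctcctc

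The Nkg7 window held a match to each of the 4 motifs, the Gzma window a RUNX match alone, and the Gzmb window RUNX, T-box and STAT matches. The Gzmc window held RUNX and ETS matches, so a RUNX match stood in all 4 windows, whether or not the groups overlapped. Windows were found for 9 of the 10 genes, all but Ctsw, with 11 windows in all. A RUNX match was present in 7 of the 11 windows, and in 16.8% of 32851 windows of all genes. A T-box match was present in 4 of the 11, those of Gzmb, Gzmk, Nkg7 and 1 of Gzmm, and in 14.5% of all windows. An ETS match was present in 5 of the 11 (35.4% of all windows) and a STAT match in 3 (8.3% of all windows). Srgn and Gzmm have 2 windows each. None of the motifs overlapped another in the windows printed. Binding of factors at these matches, and their part in the differences, was not tested.

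The spread among the SF1+ arrays was shared by most of the granule genes. SF1+ replicate 3 was the highest SF1+ array for 8 of the 10, where 24.7% of all genes had their highest SF1+ value in it. SF1+ replicate 1 was the lowest SF1+ array for 7 of the 10, against 29% of all genes. The NK cell markers had the same layout, with replicate 3 highest for 7 of 10 and replicate 1 lowest for 8 of 10, and the T cell markers too, with 9 and 11 of 12. Low values in replicate 1 were not limited to lymphoid markers: it was also lowest for 6 of 6 pan-leukocyte, 8 of 10 macrophage, 8 of 10 endothelial and 5 of 7 neutrophil markers. SF1+ replicate 1 also had the highest SF1+ value of 10 of the 12 adrenocortical markers.

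The wider machinery of the granule was counted by list. Of 15 genes of lytic granule transport and exocytosis, 0 passed over all genes with limma, and the list median was -0.09. At an unadjusted limma p under 0.05 there were 1 higher and 2 lower. Of all 20719 genes, 1576 were higher and 7.89% lower at that p, and the counts of this list are close to those shares. Rab27a, the small GTPase that docks granules, differed by 0.10 (SE 0.16), and Unc13d, which primes them, by -0.09 (SE 0.07). The genes with the smallest p were Coro1a, a leukocyte actin regulator (-1.65, SE 0.35, limma adjusted p = 0.116), Kif5b, a general kinesin (0.41, SE 0.14, 0.224) and Was, an actin regulator of blood cells (-0.47, SE 0.16, 0.233). Of 8 genes that activate or restrain granzymes, 0 passed, with a median of -0.23, and 2 were lower at an unadjusted limma p under 0.05, against 7.89% of all genes. Ctsc, the protease that activates granzymes, differed by -0.11 (SE 0.45), and Serpinb9, a granzyme B inhibitor, by -1.50 (SE 0.47, limma adjusted p = 0.202).

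The 5 other mouse granzymes of the chromosome 14 cluster, Gzmd, Gzme, Gzmf, Gzmg and Gzmn, differed by -0.04 to 0.24 and were dim in both groups, with a summed linear signal of 23.4 to 26.7 in Wnt+ arrays and 22.4 to 26.2 in SF1+ arrays. None of the 5 had an unadjusted limma p under 0.05. Of 12 granule proteases of mast cells and neutrophils, 0 passed and 3 were lower at an unadjusted limma p under 0.05, against 7.89% of all genes. The 3 were Mcpt4 (-0.96, SE 0.37), Cpa3 (-0.65, SE 0.21) and Tpsb2 (-0.27, SE 0.10). In the Fas pathway, all 9 genes had a negative difference, against 45.2% of all genes, and the median was -0.45. Of the 9, 0 passed and 5 were lower at an unadjusted limma p under 0.05, against 7.89% of all genes. Fas, the receptor of Fas ligand, measured 6.35, 5.73 and 4.79 in Wnt+ and 6.69, 6.79, 7.45 and 6.10 in SF1+, groups that overlap (-1.13, SE 0.43). Tnfsf10, the related death ligand TRAIL, differed by -1.92 (SE 0.53, limma adjusted p = 0.168).

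Transcription factors that drive the cytotoxic programme were mostly lower in Wnt+ arrays, without passing over all genes. Of 11 measured, 0 passed with limma, and at an unadjusted p under 0.05 there were 8 lower and 1 higher, with a median of -0.76. Of all 20719 genes, 7.89% were lower and 1576 higher at that unadjusted limma p. Eomes, a T-box factor of NK and CD8 T cells, measured 2.36, 2.19 and 2.42 in Wnt+ and 3.51, 3.67, 4.61 and 3.05 in SF1+. Its difference was -1.39 (SE 0.34, limma adjusted p = 0.133), and that of Tbx21, the T-box factor T-bet, was -0.76 (SE 0.21, 0.171). Runx3, which is required for CD8 T cell effector genes, differed by -1.33 (SE 0.27, limma adjusted p = 0.108) and Ikzf3 by -0.60 (SE 0.14, 0.128). Id2 and Zeb2, which many other cells express, differed by 0.17 (SE 0.20) and 0.35 (SE 0.27), and Nfil3 by 0.56 (SE 0.21). Without Wnt+ replicate 1, 2 of the 11 passed, and without SF1+ replicate 1, 1 passed.

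**Figure D3:**
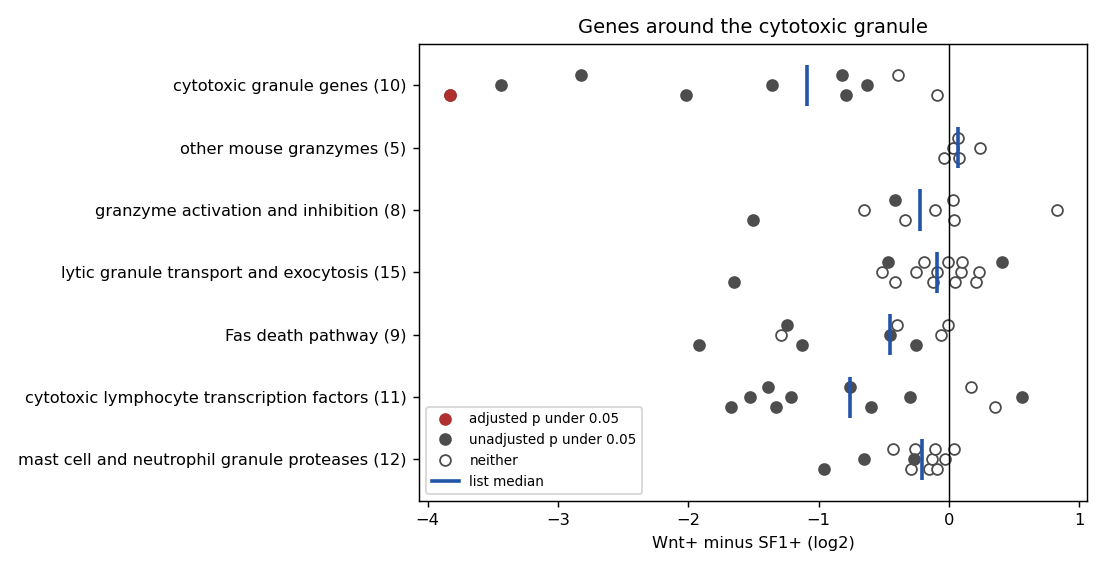
Wnt+ minus SF1+ difference (log2) of every measured gene of the granule genes and the 6 pathway lists, with the number of genes in brackets; red points passed an adjusted p of 0.05, grey points an unadjusted p of 0.05, open points neither, and blue lines are list medians. Among these lists Nkg7 is the single red point, and the medians run from -1.09 for the granule genes to 0.07 for the other granzymes.

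Markers of the cells that carry lytic granules moved with the granule genes. All 10 NK cell markers were lower without overlap between the groups, against 7.07% of all genes. Against 0.203% of all genes, 3 fell, Klrd1 (-3.23, SE 0.27, limma adjusted p = 0.0243), Il2rb (-3.61, SE 0.44, 0.0453) and Cd7 (-2.10, SE 0.21, 0.0394). Lower values without overlap were not limited to such cells. They were found for 9 of 10 plasmacytoid dendritic, 9 of 10 endothelial and 4 of 6 pan-leukocyte markers, but for 1 of 10 macrophage and 1 of 8 B cell markers. The summed linear signal of the 10 NK markers was 63 to 66.2 in Wnt+ arrays and 169 to 419 in SF1+ arrays. The NK receptor gene Ncr1 measured 2.79, 2.87 and 2.61 in Wnt+ and 3.18, 4.02, 3.71 and 4.01 in SF1+. Of 12 T cell markers, 1 fell, the kinase gene Lck (-0.95, SE 0.09, limma adjusted p = 0.0359). At an unadjusted limma p under 0.05, 10 of them were lower, against 7.89% of all genes. The summed signals of the T cell markers were 80.9 to 86.5 in Wnt+ and 114 to 295 in SF1+. Cd3e overlapped between the groups (-0.89, SE 0.45), while Cd3g (-1.57, SE 0.45) and Cd8a (-1.47, SE 0.35) did not. RMA gives no value of 0, and the list means in Wnt+ were 2.62 to 2.68 for NK and 2.67 to 2.71 for T cell markers, below the array medians. With each array left out in turn, 0 to 6 of the NK markers passed, 0 of them without Wnt+ replicates 2 or 3 or without SF1+ replicates 2, 3 or 4, and 6 without SF1+ replicate 1. Lck was likewise lost without any one of those 5 arrays. The part of NK and T cells in the granule gene differences was not tested.

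Among other blood cell lists, the plasmacytoid dendritic cell markers had a median difference of -1.12, against -1.09 for the granule genes. Of these 10 markers, 4 fell (Siglech, Bst2, Irf8 and Klk1), against 0.203% of all genes. Siglech, at -3.24 (SE 0.14, limma adjusted p = 0.00123), had the smallest p of all 20719 genes. At an unadjusted limma p under 0.05 there were 8 lower and 1 higher. Of all 20719 genes, 7.89% were lower and 1576 higher at that p, which applies to the lists below as well. The marker that was higher was Ly6d, a surface protein gene, at 0.64 (SE 0.12, limma adjusted p = 0.0871). The list mean was 4.62 to 4.70 in Wnt+ and 5.77 to 6.16 in SF1+. The count of these markers past the threshold was 4 when Wnt+ replicate 1 was left out, 2 when SF1+ replicate 1 was, and 1 when any other single array was. Of 8 B cell markers, 0 passed with limma and 1, Blnk, had an unadjusted p under 0.05, with list means of 2.49 to 2.84 in Wnt+ and 2.75 to 3.06 in SF1+. The macrophage list, whose cells also make serglycin, had a median difference of -0.15 and overlapping means of 6.16 to 6.90 in Wnt+ and 6.06 to 7.72 in SF1+. Its SF1+ values were highest in replicate 2 for all 10 genes. Srgn was also highest in SF1+ replicate 2, whereas 8 of the 10 granule genes were highest in replicate 3. Mast cell markers, which share Cma1, Cpa3 and Tpsb2 with the protease list above, had 0 passing and a median of -0.50. At an unadjusted limma p under 0.05, 3 mast cell markers were lower (Kit, Cpa3 and Tpsb2), against 7.89% of all genes. Their receptor gene Kit differed by -1.29 (SE 0.31, limma adjusted p = 0.133) with no overlap, whereas the IgE receptor genes Fcer1a and Ms4a2 overlapped, averaging 2.42 and 2.07 in Wnt+ and 2.50 and 2.03 in SF1+. Neutrophil markers (7 measured) and platelet markers (5 measured) had 0 passing and 0 with an unadjusted limma p under 0.05, and both list means overlapped between the groups. The 6 pan-leukocyte markers had a median of -1.58 with 0 passing and 6 lower at an unadjusted limma p under 0.05, against 7.89% of all genes. Among them Ptprc (CD45) differed by -1.61 (SE 0.34), and Coro1a was also counted in the granule transport list.

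Cortical and medullary markers ran the other way. Of 12 adrenocortical markers, 1 rose, Mrap (1.68, SE 0.18, limma adjusted p = 0.0396), against 0.0531% of all genes. All 12 of these markers had a positive difference at an unadjusted limma p under 0.05, as had 1576 of the 20719 genes. Their list mean was 8.71 to 9.24 in Wnt+ and 7.58 to 8.25 in SF1+. Leaving out Wnt+ replicate 2 or SF1+ replicates 2, 3 or 4 gave a count of 0. Leaving out Wnt+ replicate 1 gave 3, and leaving out SF1+ replicate 1 gave 2. The 7 chromaffin markers had a median of 1.26 and the 10 endothelial markers a median of -1.60, with 0 of either passing over all genes. At an unadjusted limma p under 0.05, 3 chromaffin markers were higher and 10 endothelial markers lower. Of all 20719 genes, 1576 were higher and 7.89% lower at that p. Of the endothelial markers, 3 passed over all genes without Wnt+ replicate 1.

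**Figure D4:**
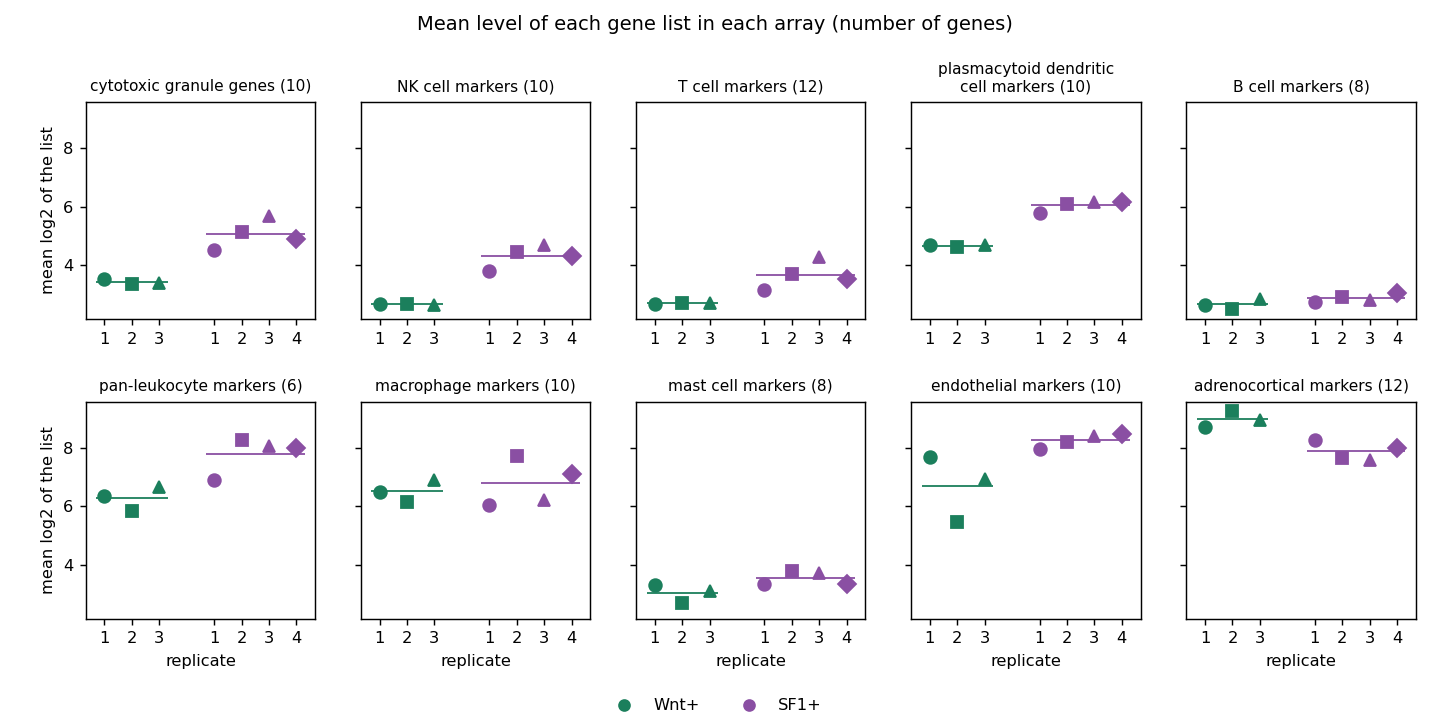
Mean log2 value of each gene list in each array, with the number of genes in brackets, Wnt+ replicates left and SF1+ replicates right, symbols for replicate numbers and lines for group means. The granule genes lie at 3.35 to 3.53 in Wnt+ and 4.50 to 5.69 in SF1+, the NK and T cell lists are laid out alike, and the macrophage and B cell lists overlap between the groups.

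Profiles across the 7 arrays, each centred on its own mean, were compared by their root mean square difference. The granule genes themselves were left out as candidates. The 4 genes nearest to Nkg7 outside them were Il2rb (0.22), Klrd1 (0.39), the chemokine gene Xcl1 (0.46) and Klk1 (0.49), a kallikrein gene of the plasmacytoid dendritic cell list. For Gzma they were Il2rb (0.30), the inhibitory NK receptor gene Klrc1 (0.39), Xcl1 (0.40) and Klrd1 (0.42). Among the genes listed, Il2rb, a receptor chain for interleukins 2 and 15, thus stood nearest to both. How near Nkg7 and Gzma lie to each other is not ranked here. It measured 3.00, 2.88 and 3.10 in Wnt+ and 5.43, 6.58, 7.51 and 6.91 in SF1+. For Srgn they were Maf (0.10), Bace2 (0.10), Mef2a (0.11) and Kctd10 (0.11), with differences of -0.83 to -0.74 and limma adjusted p of 0.154 to 0.228. The profiles were not scaled, so the measure picks genes with differences of similar size. Srgn (-0.82) and Nkg7 (-3.83) therefore could not share near genes, and their separate neighbours are no result about pattern.

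**Figure D5:**
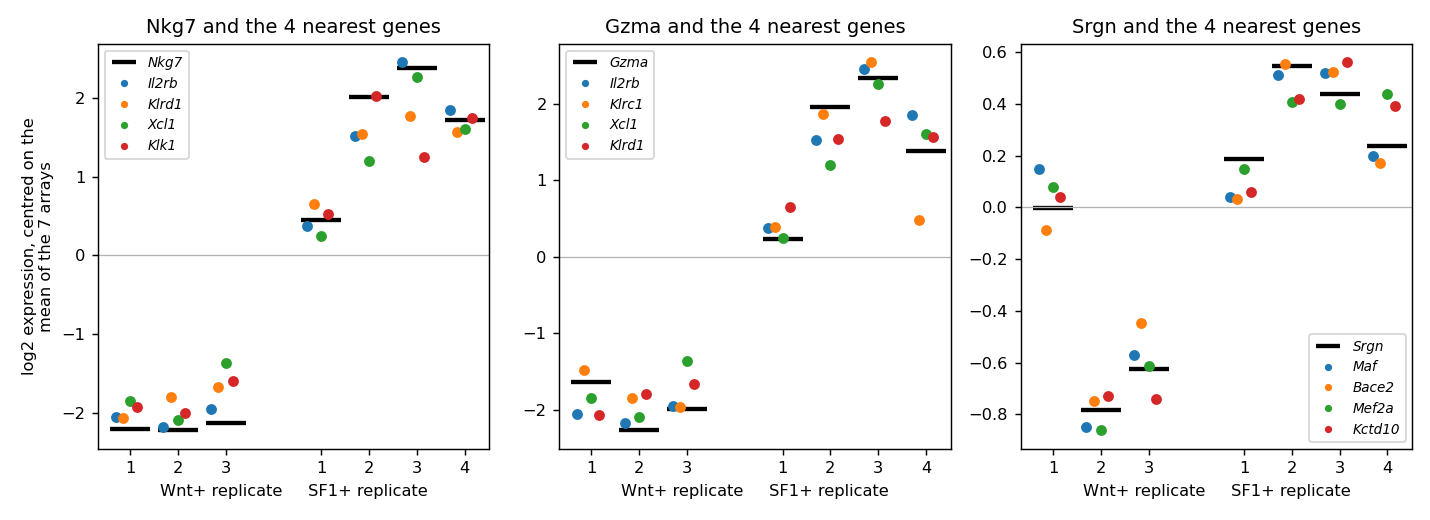
Log2 expression centred on the mean of the 7 arrays for Nkg7, Gzma and Srgn (black bars), by array, with separate vertical scales. Coloured points are the 4 genes nearest to each, with the granule genes left out as candidates. Nkg7 and Gzma separate all Wnt+ from all SF1+ arrays with their neighbours, whereas the Srgn profile has Wnt+ replicate 1 close to SF1+ replicate 1.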

How the data were processed

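The arrays measured total RNA of sorted cells, 5 ng per sort, amplified with a whole-transcriptome kit. The labels state 4 sorts per genotype, and 3 Wnt+ arrays were analysed here. The authors deposited log2 values per transcript cluster, made with RMA on perfect-match probes, per the file headers, and with the oligo package, per the submitters' processing notes. Software versions and the build were not given in the sources used. The authors' deposited table also gives an unadjusted p-value per cluster from a t-test, per the file headers, which a pooled-variance fit matched within 3.47e-09. A drawing sheet with 7 per-sample columns was not used.

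Of 28944 clusters, 23812 had a symbol. Where several clusters shared a symbol the brightest on average was kept, leaving 20719 genes under current RefSeq symbols. The group difference came from limma 3.58.1 (lmFit, eBayes; R 4.3.3), with p-values adjusted by Benjamini-Hochberg over all genes, two-sided, threshold 0.05, with no block. The fit was tested on simulated data. The 10 genes, the lists and the tests were chosen with earlier results of these data known, so counts over them are descriptions. Some lists share genes, so their counts are not separate observations. All 10 genes were named, with the genes past the threshold and up to 4 others of smallest p in each pathway list, up to 4 bright or defining genes in each marker list, and the nearest profiles of Nkg7, Gzma and Srgn, of which the first 4 are given and the next is not reported here. Further genes (Rab27a, Unc13d, Ctsc, Id2, Zeb2, Nfil3, Tbx21, Blnk, marker genes past the threshold and neighbouring genes) were picked for role or place after values were seen. Zfp683, Ly6g and Gp1bb had no value. Promoter sequences are RefSeq's. Alternatives were a replicate block, each array left out, a filter on dim genes, other scalings, moderation and array weights, other use of clusters, the series matrix values and a threshold of 0.1. Plots used matplotlib 3.10.9.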

Additional observations from a re-analysis of the deposited data

How the results depend on the processing

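The count of granule genes past the threshold was 1, and it was 0 to 3 with each array left out in turn. It was 4 among genes above the median level only (Gzma, Gzmb, Nkg7 and Ctsw, with fewer genes tested and Gzmc and Gzmk not among them), 3 with trended and robust moderation (Gzma, Gzmb and Nkg7), 2 after a further quantile normalization (Gzma and Nkg7) and 2 at an adjusted p of 0.1. It was 0 with a replicate block and 0 with no moderation, with an adjusted p for Nkg7 of 0.272 under the block and 0.196 with no moderation. The correlations of same-numbered deviations from the group means were -0.217, 0.034 and -0.214, and none of the 3 Wnt+ arrays correlated best with the SF1+ array of its own number. Deviations within a group sum to 0, which ties these correlations together. They cannot settle whether arrays of the same number shared a sort day, which the labels do not state. Median-centring, array weights, the mean of clusters, all clusters and the series matrix values left the count at 1, Nkg7. The median difference of -1.09 ranged from -1.24 to -0.97 with arrays left out, was -1.24 with the replicate block and was -1.69 among genes above the median level only. That filter used the mean over all 7 arrays. Nkg7, Gzmb and Ctsw, with Wnt+ means of 2.90, 2.76 and 2.86, below the array medians, stayed in through their SF1+ values. The count of 4 and the median of -1.69 under that filter are therefore no support for the differences. Differences kept their sign in every setting for 9 genes, and that of Gzmc ranged from -0.15 to 0.05 with arrays left out, turning to 0.05 without SF1+ replicate 3. Over all genes, 42 were lower and 11 higher. With arrays left out these counts ranged from 1 to 212 and from 0 to 100. They were 0 and 0 with the replicate block and with no moderation, 160 and 61 among genes above the median level only, 117 and 38 with trended and robust moderation, 21 and 6 after median-centring, 27 and 6 with array weights, and 174 and 95 at an adjusted p of 0.1. With all transcript clusters, 5 genes were higher. The 4 list counts above 0 (NK, T cell, plasmacytoid dendritic and adrenocortical markers) were recomputed 72 times: 33 stayed within 1.5 times of the reported count, 16 moved further and 23 were 0. The other 32 counts were 0 as reported, and 12 of their 576 recomputed values were above 0. The cause of these shifts was not tested.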
